A study of Mus musculus with 2 samples.

Results

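The clustered protocadherin genes are 57 protein-coding genes that lie in tandem on mouse chromosome 18 and carry symbols starting with Pcdha, Pcdhb or Pcdhg. They were taken from the GENCODE M21 annotation of mm10 by symbol, out of 21938 protein-coding genes on the assembled chromosomes. The alpha cluster held 14 of them, the beta cluster 22 and the gamma cluster 21, and all were annotated on the plus strand. Chromatin accessibility at these genes was read from ATAC-seq peak lists of late RPCs (retinal progenitor cells), which divide in the newborn retina and build its later-born neurons and its glia. ATAC-seq uses the Tn5 transposase, which inserts sequencing adapters into DNA that is not wrapped in nucleosomes, so that reads collect at open sites.

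The study introduced a control plasmid or a plasmid overexpressing Neurog3 (Ngn3-OE) into retinas of mouse pups by in vivo electroporation at postnatal day 1. GFP-labelled cells were sorted at day 2 after electroporation, and 50000 sorted cells entered each library. Each group, control and Ngn3-OE, had 1 library, so that a difference between the groups cannot be told apart from a difference between preparations, and no test of the condition was possible. Both groups carried a GFP-marked plasmid and passed the same sort. Mouse strain and the number of pups behind a library are not given in the sources used here. The sorted cells can hold any cell type that took up the plasmid.

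Clustered protocadherins are cadherin-type adhesion proteins of the neuronal surface, known for giving each neuron a molecular identity by which its own branches avoid one another. In the retina, gamma protocadherins are known for self-avoidance of starburst amacrine cell dendrites and for the survival of interneurons. Every variable exon has its own promoter. In the alpha and gamma clusters the variable exon is spliced to constant exons shared by the whole cluster, whereas each beta gene is a single exon. Most variable exons, the alternates, are known to be chosen stochastically in single neurons, with promoters that are silenced by DNA methylation until chosen and with CTCF and cohesin looping the chosen promoter to a distant enhancer. The last variable exons of the alpha and gamma clusters, the C-types, are known to be used more uniformly.

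The control list held 117165 peaks and the Ngn3-OE list 124935 on the assembled chromosomes. The height of a peak is given as the number of tags piled up at its summit, solved from the deposited fold enrichment and p-value, and the median peak had 9 tags in each library. Sequencing depth is not given by the lists, and the lowest background of the Ngn3-OE library was 0.983 times that of control, which was used to scale ratios between the libraries. At the start of Neurog3 no peak was listed in control, while the Ngn3-OE peak reached 1591 tags, a height to which the plasmid copy of the gene can add. The start of a gene is taken as the upstream end of its annotated span, so a peak at an inner start more than 1 kb away did not count. Of 10 retinal progenitor markers, 8 had a peak within 1 kb of the start in control and 9 in Ngn3-OE, with no such peak at Notch1 in either. Over the 8 with a peak in both libraries the median was 36 tags in control and 30.5 in Ngn3-OE, and among them Pax6 (28 and 15), Ccnd1, Hes1 and Sox2 were lower in Ngn3-OE and Lhx2, Six6 and Rax higher. Six3 had a peak of 9 tags in Ngn3-OE only. The part of such marker differences in the results at the clusters was not tested. Of 8 vascular and microglial markers, 3 had such a peak in each library, Kdr with 43 tags in control and 28 in Ngn3-OE, P2ry12 with 8 and 7, and Cldn5 with 6 and 10, while Cdh5, Pecam1, Cx3cr1, Csf1r and Aif1 had none.

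The 57 genes spanned 36930184 to 37841873 of chromosome 18 in mm10. With 50 kb added on each side, the interval held 63 peaks in control and 60 in Ngn3-OE, or 62.3 and 59.3 peaks per Mb, compared with 43.0 and 45.8 per Mb over the assembled chromosomes. Of the control peaks, 12 lay in the alpha cluster, 15 in the beta cluster and 22 in the gamma cluster. The Ngn3-OE counts were 10, 14 and 22 in the same order. A further 9 control and 10 Ngn3-OE peaks lay in the 50 kb past the gamma cluster, and no peak was listed in the 50 kb before the alpha cluster in either library. Peaks at the clusters were ordinary in height, with medians of 8 tags in control and 9 in Ngn3-OE, and the median peak stood at the 42.6th percentile of the control list and the 43.7th of the Ngn3-OE list when peaks were ranked by the deposited −log10 q-value.

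**Figure D1:**
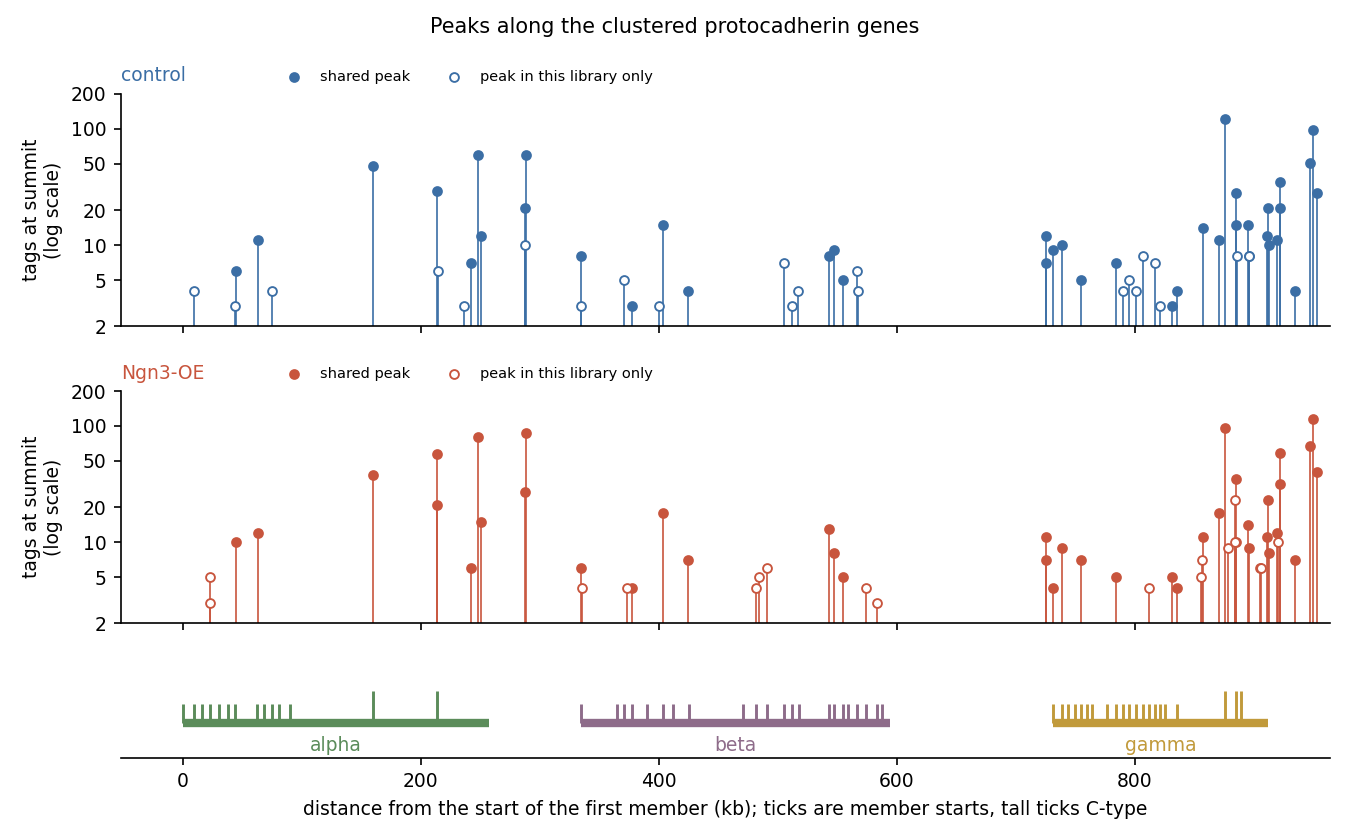
Tags at the summit (log scale) of every peak of the interval, plotted against the distance in kb from the start of the first member, with control above and Ngn3-OE below. Filled points are peaks that overlap a peak of the other library, open points are peaks of 1 library, and the bars at the bottom mark the 3 clusters with a tick at each member start (tall for C-type). The tall peaks of both libraries sit at the C-type ends of the alpha and gamma clusters and just past them, and the low peaks are spread over the alternates.

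The longest stretch without a peak in either library ran for 141.9 kb, from 37513633 to 37655536, between the last beta genes and the gamma cluster. It held 1 member start, that of Pcdhb22, as well as the starts of Slc25a2, a mitochondrial carrier, and Taf7, a subunit of the general transcription factor TFIID. Chromosome 18 had 57 stretches at least as long without a peak.

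A summit within 1 kb of the start was listed for 31 of the 57 members in control, or 54.4% (95% exact binomial interval 40.7 to 67.6), and for 24 members in Ngn3-OE, or 42.1% (29.1 to 55.9). The same measure over all protein-coding genes gave 61.7% in control and 62% in Ngn3-OE. Olfactory receptor genes (Olfr), another tandem family, had a start peak at 13 of 1135 genes in each library, or 1.15%. The all-gene share lay inside the members' interval in control and above it in Ngn3-OE. With only peaks of a −log10 q of 5 or more, 17 members in control (29.8%, 18.4 to 43.4) and 14 in Ngn3-OE (24.6%, 14.1 to 37.8) had a start peak, and the all-gene shares of 58.2% and 58.8% lay above both intervals. The median start peak of members had 6 tags in control and 6.5 in Ngn3-OE, against 42 and 43 over all protein-coding genes. The median percentile of members' start peaks was 38.6 in control and 43.7 in Ngn3-OE, against 91.5 and 91.4 over all genes with a start peak. Only 2 members in control and 3 in Ngn3-OE stood above the median of all genes. All intervals printed here cover counting error only.

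The start peaks separated by exon class. Of the 5 C-type members, 4 had a start peak in both libraries, and their heights ran from 28 to 122 tags in control and from 35 to 97 tags in the Ngn3-OE library. Of the 52 alternates, 27 had one in control and 20 in Ngn3-OE, and their heights ran from 3 to 15 tags in control and from 3 to 18 tags in the Ngn3-OE library. The ranges of C-type and alternate members did not overlap in either library. Median percentiles were 89.9 in control and 93.6 in Ngn3-OE for the C-types, close to those of all genes, and 27.2 and 33.5 for the alternates. In a bulk library a low peak can come from few cells with an open site or from weak opening in many cells, and these cannot be told apart here.

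Pcdhgc3, the first C-type exon of the gamma cluster (start at 37806364), had the highest start peak of all members. It reached 122 tags in control and 97 in Ngn3-OE, at the 99.5th and 98.5th percentile, with the summit 34 bp upstream of the start in control and 30 bp in Ngn3-OE. The scaled ratio of Ngn3-OE to control was 0.81, with a counting interval of 0.61 to 1.06. Pcdhac1 (start at 37090013) had 48 tags in control and 38 in Ngn3-OE, a scaled ratio of 0.81 (0.51 to 1.26). Both starts were lower in Ngn3-OE, and both intervals included 1.

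Pcdhac2, the last alpha exon before the constant exons (start at 37143503), went the other way. Its summit, 46 bp upstream of the start in control and 48 bp in Ngn3-OE, had 29 tags in control and 57 in Ngn3-OE. The scaled ratio was 2.0 (1.26 to 3.24), the highest of any shared region at the clusters. A further Ngn3-OE peak of 21 tags lay 405 bp downstream of that start inside the same open region, and a control peak of 6 tags lay 752 bp downstream. Control covered this promoter with a single peak of 560 bp with 3 summits, and the Ngn3-OE peak at the start was 340 bp wide.

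Pcdhgc4 (start at 37815079) had its main summit 264 bp downstream of the start in both libraries, with 28 tags in control and 35 in Ngn3-OE and a scaled ratio of 1.27 (0.75 to 2.17). A lower peak at the start itself had 15 tags in control and 10 in Ngn3-OE. Upstream of it, Ngn3-OE had 2 peaks that control lacked, of 23 tags at 694 bp upstream (37814347 to 37814468) and of 10 tags at 466 bp upstream. The first of these was the highest one-library peak of the interval in either list, with a −log10 q of 18.4, and no other one-library peak there had a −log10 q over 10. A site below the listing limit has no value in these lists, so no ratio can be given for it. Pcdhgc5, the last variable exon of the gamma cluster (start at 37819513), had no peak within 1 kb in either library.

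**Figure D2:**
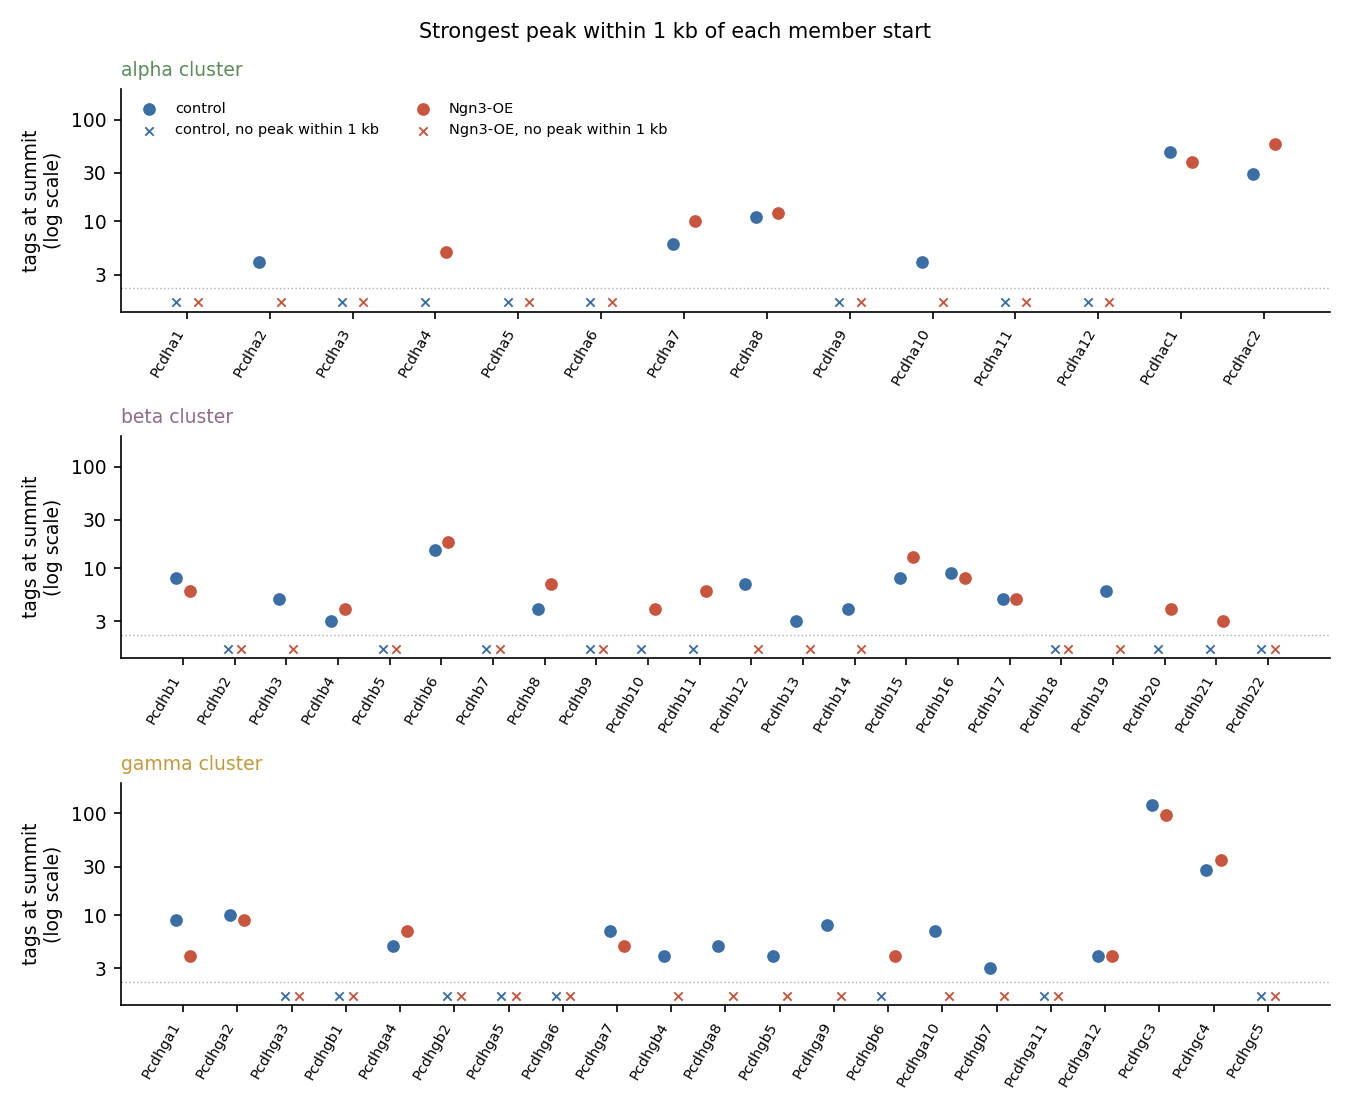
Tags at the summit (log scale) of the strongest peak within 1 kb of each member start, in genomic order within the alpha, beta and gamma clusters, for control and Ngn3-OE. Crosses below the dotted line mark members with no peak within 1 kb, and the C-type members at the right of the alpha and gamma panels stand above the alternates, except Pcdhgc5.

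Among the 12 alpha alternates, start peaks were few. Pcdha7 had 6 tags in control and 10 in Ngn3-OE, a scaled ratio of 1.69 (0.56 to 5.67), and Pcdha8 had 11 and 12 tags. These summits lay inside the exons, 575 and 581 bp downstream of the Pcdha7 start and 560 and 545 bp downstream of the Pcdha8 start. Pcdha2 and Pcdha10 had 4 tags each in control only, and Pcdha4 had 5 tags in Ngn3-OE only. Pcdha10 stands here for a gene that GENCODE labels Pcdha11 and RefSeq Pcdha10. No start peak was listed for Pcdha1, Pcdha3, Pcdha5, Pcdha6, Pcdha9, Pcdha11 and Pcdha12.

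In the beta cluster 7 of 22 members had a start peak in both libraries. Pcdhb6 was the highest, with 15 tags in control and 18 in Ngn3-OE at 128 bp upstream of the start in each. Pcdhb15 had 8 tags in control and 13 in Ngn3-OE, a scaled ratio of 1.65 (0.63 to 4.60), and Pcdhb8 had 4 and 7 tags, a ratio of 1.78 (0.45 to 8.29). The other shared starts were Pcdhb1 with 8 and 6 tags, Pcdhb4 with 3 and 4, Pcdhb16 with 9 and 8 and Pcdhb17 with 5 and 5, each given as control and Ngn3-OE. Every one of these ratios had an interval that included 1.

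Control alone listed a start peak at Pcdhb3 (5 tags), Pcdhb12 (7), Pcdhb13 (3), Pcdhb14 (4) and Pcdhb19 (6). Ngn3-OE alone listed one at Pcdhb10 (4 tags), Pcdhb11 (6), Pcdhb20 (4) and Pcdhb21 (3). The remaining 6, Pcdhb2, Pcdhb5, Pcdhb7, Pcdhb9, Pcdhb18 and Pcdhb22, had none.

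Of the 21 gamma members, 13 had a start peak in control and 8 in Ngn3-OE, C-types included. Pcdhga1 had 9 tags in control and 4 in Ngn3-OE, a scaled ratio of 0.45 (0.10 to 1.62), the only shared region at the clusters that was at least 1.5-fold lower. Pcdhga2 had 10 tags in control and 9 in Ngn3-OE, Pcdhga4 had 5 and 7, Pcdhga7 had 7 and 5, and Pcdhga12 had 4 and 4. Start peaks of control alone were those of Pcdhga9 (8 tags), Pcdhga10 (7), Pcdhga8 (5), Pcdhgb4 (4), Pcdhgb5 (4) and Pcdhgb7 (3). Pcdhgb6 alone had one in Ngn3-OE only, with 4 tags. No start peak was listed for Pcdhgc5 and the alternates Pcdhga3, Pcdhga5, Pcdhga6, Pcdhga11, Pcdhgb1 and Pcdhgb2, 7 gamma members in all.

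Over the 3 clusters, 18 members had a start peak in both libraries, 13 in control only, 6 in Ngn3-OE only and 20 in neither. Of the 37 members with a start peak in either library, 19 had it in 1 library only, or 51.4% (34.4 to 68.1), compared with 4.48% of all protein-coding genes with a start peak in either. All 19 were alternates with at most 8 tags. Among protein-coding genes with at most 12 tags at the start in both libraries, a limit chosen after the values were seen, 29.5% had the peak in 1 library only, compared with 61.3% (42.2 to 78.2) of the 31 such members. Heights below that limit were not matched between members and other genes, so the part of low height in this difference was not tested. The lists hold peaks from 3 tags up, and those of the 19 starts with 3 to 5 tags lay near the limit of what was listed. Pcdhga9, Pcdhb12, Pcdhga10, Pcdhb11 and Pcdhb19 stood above it, with a −log10 q over 5 in the library that listed them. A start without a listed peak cannot be called closed.

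The summits of members' start peaks lay mostly just upstream of the start. The median offset of the strongest summit from the start, negative when upstream, was -38 bp for the control list and -34.5 bp for the other, against -27 and -25 bp over all protein-coding genes. At the 18 members with a start peak in both libraries, the summits of the libraries lay a median of 13 bp apart. Of the strongest summits, 23 of 31 in control and 15 of 24 in Ngn3-OE lay within the 200 bp upstream of the start, compared with 51.5% and 50.4% over all protein-coding genes with a start peak. The rest lay mostly inside the variable exon, as at Pcdha7, Pcdha8, Pcdhga12 and Pcdhgc4.

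Of the 63 control peaks, 22 overlapped no Ngn3-OE peak, or 34.9% (23.3 to 48.0), compared with 21.7% of all control peaks, a background just below the interval. Of the 60 Ngn3-OE peaks, 18 overlapped no control peak, or 30% (18.8 to 43.2), compared with 26.6% of all Ngn3-OE peaks, a background inside the interval. The control difference depended on low peaks, with 22.9% beside 18.3% of all control peaks at a −log10 q of 5 or more in both lists, and 13.0% beside 19.8%, the opposite direction, in the top 50000 peaks of each list. One-library peaks were low, with medians of 4 tags in control and 5 in Ngn3-OE, and 14 of the control and 10 of the Ngn3-OE ones had 3 to 5 tags. Only 4 in control reached a −log10 q of 5, those at the starts of Pcdhga9, Pcdhb12, Pcdhga10 and Pcdhb19. In Ngn3-OE 3 did, namely the peak 694 bp upstream of Pcdhgc4, that at the start of Pcdhb11 and a peak of 7 tags in an intron of the gamma cluster 19.7 kb before Pcdhgc3 (37786569 to 37786725). At member starts the one-library counts were 17 of 36 peaks in control and 10 of 30 in Ngn3-OE, and away from them 5 of 27 and 8 of 30.

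The highest peaks of the interval that were not at a C-type start lay at the far ends of the alpha and gamma clusters. Background knowledge places the alpha enhancers in this part of the locus, between the constant exons and downstream of the last one, and a gamma and beta control region downstream of the gamma cluster. Coordinates of those elements were not among the sources used here, and whether these peaks are the same elements was not tested.

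Within the alpha cluster, the intron between constant exons 2 and 3 held a region at 37178322 to 37178809, at the start of the noncoding gene Gm10544. It had 60 tags in control and 81 in Ngn3-OE, a scaled ratio of 1.37 (0.97 to 1.95). Past the alpha cluster, 30.7 kb beyond its end, a region at 37218175 to 37218476 had 60 tags in control and 87 in Ngn3-OE, a ratio of 1.47 (1.05 to 2.08). Its neighbour at 37217210 to 37217529 had 21 and 27 tags, a ratio of 1.31 (0.71 to 2.43). A control peak of 10 tags lay between the pair and had no overlapping peak in Ngn3-OE.

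Just past the gamma end, outside any gene, a region at 37842060 to 37842411 had 21 tags in control and 23 in Ngn3-OE, a ratio of 1.11 (0.59 to 2.12), and one at 37842639 to 37842883 had 10 and 8, a ratio of 0.81 (0.28 to 2.29). The higher regions farther downstream lay in introns of Diaph1, an actin-nucleating formin that is transcribed towards the cluster. The region at 37880141 to 37880450, 38.5 kb past the gamma end, had 98 tags in control and 114 in Ngn3-OE, a ratio of 1.18 (0.90 to 1.57), and was the highest Ngn3-OE peak of the interval. The region at 37877208 to 37877566 had 51 and 67 tags, a ratio of 1.34 (0.91 to 1.96). The region at 37852091 to 37852425, 10.4 kb past the gamma end, had 35 and 58 tags, a ratio of 1.69 (1.09 to 2.64). Beside it, the region at 37852661 to 37852873 had 21 and 32 tags, a ratio of 1.55 (0.87 to 2.83), and the region at 37883546 to 37883756 had 28 and 40 tags, a ratio of 1.45 (0.87 to 2.44). These 5 regions in Diaph1 were higher in Ngn3-OE, with the interval above 1 at 37852091 alone.

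The constant exons were little marked. The first gamma constant exon held a shared peak of 15 tags in control and 14 in Ngn3-OE, and the end of the last one held another, of 12 and 11 tags. No summit lay in a constant exon of the alpha cluster. In the gamma introns a region 5.4 kb before Pcdhgc3 (37800896 to 37801077) had 11 tags in control and 18 in Ngn3-OE, a ratio of 1.66 (0.74 to 3.90).

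When overlapping peaks of the libraries were merged, the interval held 41 shared regions, and 27 of them were higher in Ngn3-OE, beside 61.8% of all shared regions. Of the 41, 9 were at least 1.5-fold higher in Ngn3-OE, beside 19.9% of all shared regions on the same rule, and 1 was at least 1.5-fold lower, beside 11.5%. The 9 were the regions at Pcdhac2, Pcdha7, Pcdhb8 and Pcdhb15, the start of Pcdhgb8, the gamma intron region before Pcdhgc3, and 3 regions in Diaph1, of which the weakest, at 37865196 to 37865353, had 4 tags in control and 7 in Ngn3-OE. Ratios had a median of 1.02 over the 19 shared regions at member starts and 1.23 over the 22 elsewhere, against 1.08 over all 90423 shared regions.

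Low regions dominate these counts. With a minimum of 40 tags summed over the libraries, chosen after the values were seen, 13 shared regions were left at the clusters, and 11 were higher in Ngn3-OE, beside 62.2% of all shared regions of that height. Of the 13, 8 lay more than 1 kb from any annotated start, and all 8 were higher in Ngn3-OE, with ratios from 1.11 to 1.69 and a median of 1.39. Only those at 37217210 and 37218175, past the alpha cluster, lay between the first and last member. The rest of the 8 lay past the gamma end, all but the region at 37842060 in introns of Diaph1. Among all distal regions of that height in the genome 64.8% were higher and the median ratio was 1.14. At least 1.5-fold was reached by 2 of the 8, beside 19.4% of all distal regions of that height. The 4 regions of that height at member starts were divided, with Pcdhac2 and Pcdhgc4 higher and Pcdhac1 and Pcdhgc3 lower.

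**Figure D3:**
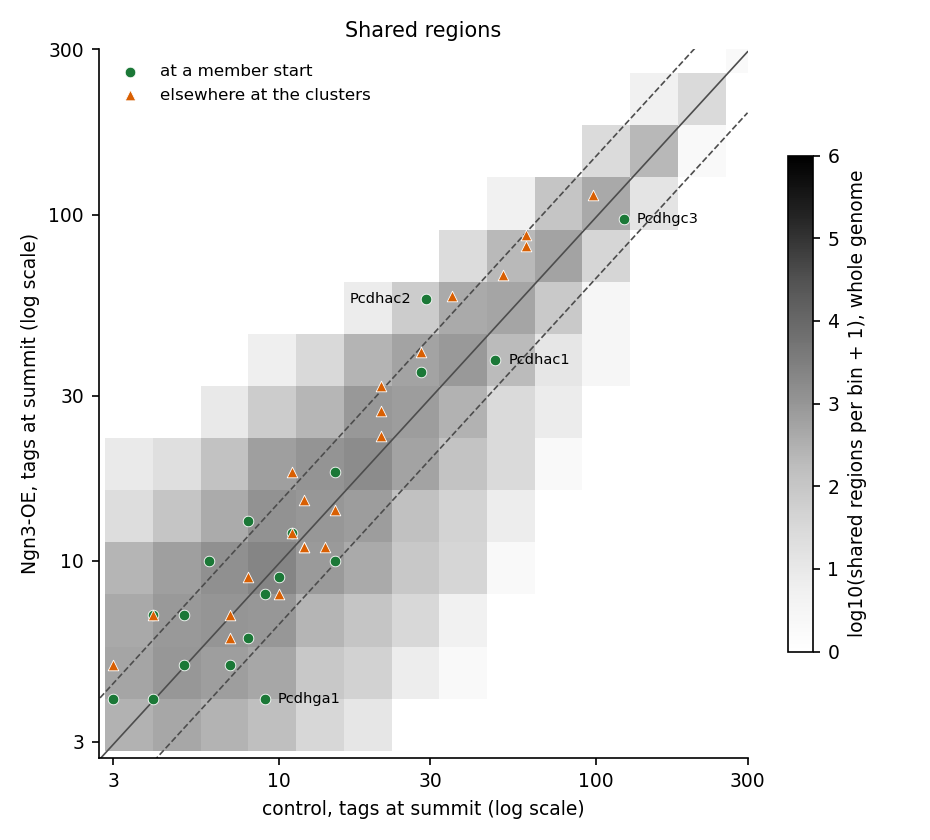
Tags at the summit in control (x axis) and Ngn3-OE (y axis), both on log scales, for the 41 shared regions at the clusters, with regions at member starts as circles and others as triangles. Grey squares count shared regions of the genome for some bins only, and the regions of the other bins are not drawn. The solid line marks a scaled ratio of 1 and the dashed lines 1.5-fold either way. Most regions at the clusters lie between the dashed lines, Pcdhac2 lies above the upper one and Pcdhga1 below the lower one.

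Sequence around the starts differed between the clusters. CpG dinucleotides are the targets of DNA methylation, and their observed number relative to that expected from the C and G content was taken over 500 bp on each side of the start. The median was 0.68 in the alpha cluster, 0.38 in the beta cluster and 0.59 in the gamma cluster, against 0.55 over all protein-coding genes. The highest values were those of Pcdhga11 at 0.86, which had no start peak, and Pcdhgc3 at 0.80, which had the highest. Median GC content was 44.9% over the members and 54.8% over all protein-coding genes. The median CpG ratio was 0.52 for the 37 members with a start peak in either library and 0.58 for the 20 with none.

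CTCF, the zinc finger protein that anchors chromatin loops, is known to bind alternate promoters and exons. A search for its consensus on both strands placed the matches at fixed positions of the variable exons, and the stretches named next were chosen after the positions were seen. In the alpha cluster 7 of 12 alternates held an exact match on the gene's own strand between 462 and 587 bp downstream of the start, and 11 of 12 held one with up to 1 mismatch between 462 and 608 bp, Pcdha2 being the exception. Over all protein-coding genes, 0.301% held an exact match on that strand between 400 and 650 bp downstream of the start and 4.75% one with up to 1 mismatch. In the beta cluster the matches lay on the opposite strand between 2277 and 2816 bp downstream of the start. There 13 of 22 members held an exact match, beside 0.643% of all protein-coding genes between 2200 and 2900 bp, and 18 of 22 one with up to 1 mismatch, beside 8.31%. Exons of the cluster resemble one another, so these matches are not independent. The peaks at the match in Pcdhb3 and Pcdhb10 had 17 and 18 similar stretches elsewhere in the clusters. No gamma member held an exact match in either stretch.

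Few of these matches carried a listed peak. In the alpha cluster the exonic summits of Pcdha7 and Pcdha8 and an Ngn3-OE peak of 3 tags 579 bp into Pcdha4 held an exact match, while Pcdha1, Pcdha5, Pcdha6 and Pcdha12 had the match and no peak. In the beta cluster 2 of the 13 exact matches carried a peak, at 2407 bp into Pcdhb3 with 4 tags and at 2425 bp into Pcdhb10 with 5 tags, each in Ngn3-OE only. Away from the variable exons, an exact match lay in the region at 37217210 past the alpha cluster and in those at 37852091 and 37883546 in Diaph1. Within 100 bp of the summit, 6.35% of the control peaks and 13.3% of the Ngn3-OE peaks of the interval held an exact match, or 4 of 63 and 8 of 60, beside 5.87% and 5.58% of all peaks. With up to 1 mismatch allowed, the shares were 12.7% and 18.3% of the interval's peaks, beside 20.6% and 20.1% of all peaks. A match is a description of letters and does not show binding.

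**Figure D4:**
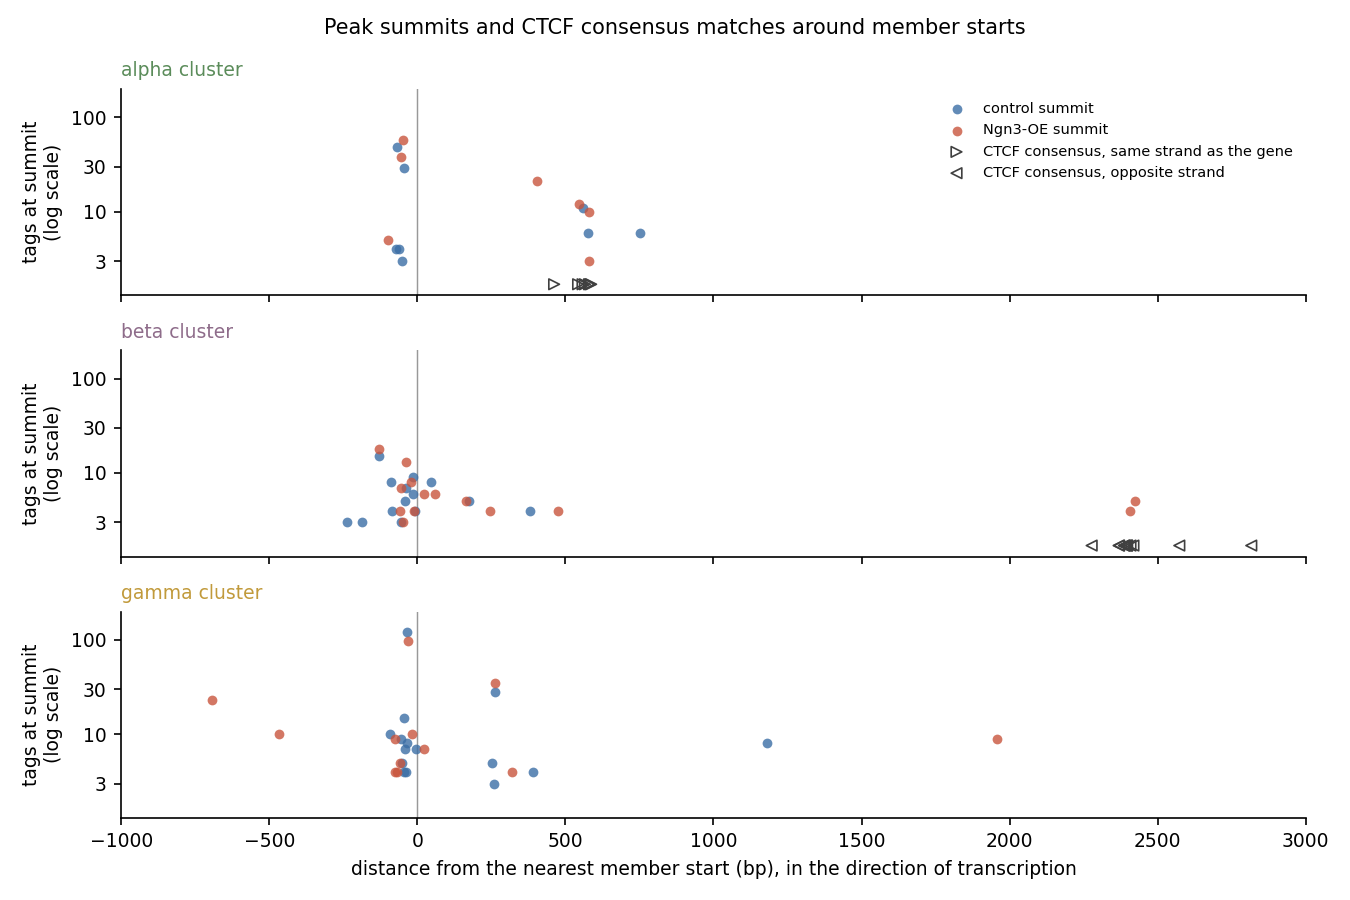
Peak summits (points, tags at the summit on a log scale) and exact matches to the CTCF consensus (open triangles on the base line, pointing with the strand of the match) by distance in bp from the nearest member start, for the alpha, beta and gamma clusters. Summits gather just upstream of the start in each cluster, alpha matches and a second group of alpha summits lie about 500 to 600 bp downstream, and beta matches lie beyond 2200 bp with a peak at 2 of them.

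Similar exons can share reads. Of the 81 merged regions at the clusters, 4 had a copy elsewhere in the genome that covered at least 90% of the region at 95% identity or more. The exonic regions of Pcdha7 and Pcdha8 were copies of each other at 98.9% identity, and the region in Pcdhgb7 had its copy beside Pcdhgb6 at 97.5%. The fourth was a 3-tag control peak in the beta cluster with 951 copies. The heights at Pcdha7, Pcdha8 and Pcdhgb7 are therefore uncertain, since some reads may fit both copies, which was not examined in the reads. A looser match, over at least 50% of the region at 80% identity or more, was found elsewhere in the clusters for 16 of the 81 regions. The peaks within the exons of Pcdhb3 and Pcdhb10 were among them, with 17 and 18 such stretches and no near-identical copy. The start of Pcdhgb8, which GENCODE labels a polymorphic pseudogene and which was therefore not counted as a member, had 3 tags in control and 5 in Ngn3-OE.

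Genes around the clustered protocadherins in function stood near other genes in height at the start. Of 12 nonclustered protocadherins, which lie outside the clusters, 11 had a start peak in each library, with medians of 38 tags in control and 37 in Ngn3-OE, and Pcdh12, known from endothelial cells, had none. Pcdh9 had 129 tags in control and 98 in Ngn3-OE, and Pcdh10 had 113 and 112. Of 22 regulators of protocadherin promoter choice (CTCF, cohesin and its loaders, DNA methyltransferases, TET enzymes, SETDB1, SMCHD1 and others), 18 had a start peak in each library, with medians of 50.5 and 54 tags. Dnmt3b, the methyltransferase known to mark alternate promoters, had 15 tags in control and 21 in Ngn3-OE, and Ctcf had 37 and 36. Of 14 signalling partners, 13 had a start peak in each library, with medians of 44 and 46 tags. All 3 lists stood near the median of all protein-coding genes, and the alternates below it.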

How the data were processed

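ATAC-seq peak lists of 1 control and 1 Ngn3-OE library were used, grouped by their titles. Per the study's methods, the authors trimmed reads with Trimmomatic, aligned them to mm10 with Bowtie2, removed mitochondrial, blacklisted and duplicate reads, shifted read ends (4 bp forward, 5 bp back), kept fragments up to 120 bp and called peaks per library in MACS2 at a q-value limit of 0.05. Longer nucleosomal fragments therefore do not count here. The deposited columns hold an integer score, a fold enrichment ratio, the −log10 p-value, the −log10 q-value and the summit distance from the peak start, none of them normalised between libraries.

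Lines with 1 interval were merged and kept the strongest summit. Tags at the summit were solved from the deposited fold enrichment and −log10 p, and a whole number was recovered for 100% of peaks (largest residual 0.0019 in −log10 p). Tags depend on the extension the authors used, which is not given in the sources used here. Peaks were shared when they overlapped by at least 1 bp. Ratios have exact conditional binomial intervals. Motifs were searched in GRCm38 and copies with blastn 2.17.0, and scripts used numpy 2.4.6, scipy 1.17.1, pandas 2.3.3 and matplotlib 3.10.9. The solving step was tested on simulated data.

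Named singly were members with a start peak, the C-type members, the 5 peaks of highest −log10 q per library, one-library peaks with a −log10 q of at least 5 and shared regions past 1.5-fold, and other names were added after their values were seen. The members and lists were chosen with earlier results of these data known. No sequence is printed for this locus, and the RNA-seq data of the study were not used here.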

Additional observations from a re-analysis of the deposited data

How the results depend on the processing

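With 1 library per group there was no replicate to leave out. Starts of 3 to 5 tags lie near the listing threshold, which limits what can be said of them. No paired analysis was possible because neither group had replicates. Of 46 alternative values over 13 results, 31 stayed close to the reported ones, counts within 1.5 times and shares and medians within the 95% interval of the reported value. When only peaks with a −log10 q of 5 or more were counted, the interval held 35 control and 35 Ngn3-OE peaks, member starts with a peak fell to 17 in control and 14 in Ngn3-OE, and the one-library share to 22.9% in control and 20% in Ngn3-OE, beside 18.3% and 23.0% of all peaks so chosen. With the top 50000 peaks of each list the one-library shares were 13.0% in control and 12.5% in Ngn3-OE, beside 19.8% and 19.9% of all such peaks. Regions at least 1.5-fold higher numbered 9, but 0 at 2-fold, where Pcdhac2 fell just short, and 3 with at least 40 tags. Regions at least 1.5-fold lower numbered 1, but 2 unscaled, 2 scaled by the median ratio of all shared regions and 0 with at least 40 tags. Members with an exact CTCF consensus match within 500 bp of the start numbered 1, but 0 within 250 bp, 7 within 1 kb and 16 (28.1%) with up to 1 mismatch, where the shares of all protein-coding genes were 3.17%, 2.12%, 4.80% and 33.4%.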

Other observations

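Short motifs of other factors were searched around member starts as well. The letters CCATTGT or CCTTTGT, a SOX-type core, lay within 500 bp of the start at 38 of 57 members on either strand, or 66.7%, compared with 24.0% of all protein-coding starts. The share was 72.7% in the beta cluster, 66.7% in the gamma cluster and 57.1% in the alpha cluster, and 1 of 5 C-type members held it. Median GC content was 41.3% in the beta cluster, 47.1% in the gamma cluster, 45.4% in the alpha cluster and 55.8% over the C-type members, and its part in these shares was not tested. Members lie in tandem and some resemble one another in sequence, and the part of that likeness was not tested either. Around the summits the share was ordinary, with 6 of 63 control peaks and 4 of 60 Ngn3-OE peaks of the interval, or 9.52% and 6.67%, compared with 8.80% and 7.41% of all peaks.

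The letters CATCTG, an E-box core of the kind that proneural factors recognise, lay within 500 bp of the start at 21 of 57 members, or 36.8%, compared with 42.8% of all protein-coding starts. Within 100 bp of the summit they were found at 11 of 63 control peaks and 13 of 60 Ngn3-OE peaks of the interval, or 17.5% and 21.7%, compared with 21.3% and 22.6% of all peaks. At member starts the counts were 5 of 36 in control and 3 of 30 in Ngn3-OE, and away from them 6 of 27 and 10 of 30. The regions at 37218175, 37787254, 37852091, 37880141 and 37883546 and the exonic regions of Pcdha7 and Pcdha8 held these letters near the summit of both libraries, and the region at Pcdhac2, with the highest scaled ratio, held none of these letters.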
